A study of Mus musculus with 24 samples.

Results

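Thyroid hormone transport, activation and response genes were followed in mouse astrocytes and neural stem cells. They were Slco1c1, Dio2, Thra, Thrb, Klf9 and Hr, taken by name as 6 of the 49671 genes in the count table, and all 6 passed the filter on low counts. RNA-seq counts were compared in 24 libraries, 4 in each of 6 groups. Neural stem cells (NSC) and the astrocytes made from them (AGES) came from the same embryonic stem cell line, GSC-5003, so these groups represent a single line. That line derives from C57BL/6N mice, a substrain other than that of the primary cells. Primary cultures were grown in AstroMACS medium and the stem cell lines in a medium with the B27 supplement. Line, substrain, origin, medium and culture time therefore cannot be told apart where stem cell derived and primary cells are compared. NSC were kept with 20 ng/ml each of FGF and EGF, and AGES were differentiated with 20 ng/ml BMP4 for 3 to 5 days. Primary astrocytes came from wild-type C57BL/6J mice through magnetic sorting for ACSA-2, an epitope on the sodium pump subunit Atp1b2, with 2 mice pooled for each isolation. The paper states that both sexes were mixed throughout, and the sexes within each pool are not given. Neonatal mice (neoAC) were aged 4 to 8 days and adult mice (AdAC) 100 to 140 days. Cells were frozen directly after sorting (neoAC direct, AdAC direct) or first cultured for 7 to 10 days (neoAC CellC, AdAC CellC). Adult and neonatal brains were dissociated with different kits, with debris and red blood cell removal for adult cells. For direct adult isolation the paper states that olfactory bulb and cerebellum were taken out, and for neonatal mice that cerebral tissue without meninges was used. Age, kit and tissue taken therefore cannot be told apart. The paper does not state whether adult cultures had the same dissection as AdAC direct. None of the groups was given or deprived of thyroid hormone as an experimental factor, and no hormone level was analysed here.

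The thyroid gland releases mostly T4, a prohormone, and the active form is T3. In brain, T4 is taken up by the transporter OATP1C1, the product of Slco1c1, and astrocytes convert it to T3 with the type 2 deiodinase, the product of Dio2, while the type 3 deiodinase encoded by Dio3 inactivates both hormones. T3 binds the nuclear receptors encoded by Thra and Thrb, which repress their targets without hormone and activate them with it, and Klf9 and Hr are well-known T3-induced targets in brain. The B27 supplement used for the stem cell lines is known to contain T3 and corticosterone.

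The promoters of Dio2 and Slco1c1 are shown because these genes of hormone supply fell together in culture, as described further on. Both runs are the 250 bases before the RefSeq start, 5′ to 3′ on the gene's own strand, in GRCm38.p6 coordinates. The Dio2 run is chr12:90739039-90739288 on the minus strand and the Slco1c1 run is chr6:141524104-141524353 on the plus strand. Capitals mark a match to TGACGTCA, the cAMP response element.
Dio2: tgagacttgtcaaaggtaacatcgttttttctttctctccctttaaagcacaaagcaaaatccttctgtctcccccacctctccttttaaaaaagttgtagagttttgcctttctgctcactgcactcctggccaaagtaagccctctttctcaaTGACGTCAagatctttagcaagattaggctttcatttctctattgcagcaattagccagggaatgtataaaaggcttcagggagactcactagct
Slco1c1: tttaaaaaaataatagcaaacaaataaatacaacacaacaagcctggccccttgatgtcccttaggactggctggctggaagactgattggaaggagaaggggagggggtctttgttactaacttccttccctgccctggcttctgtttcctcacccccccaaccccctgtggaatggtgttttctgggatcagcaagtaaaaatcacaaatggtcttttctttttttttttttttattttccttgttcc

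The RefSeq promoter windows of 4 of the 6 genes, 5 promoters in all, were searched on both strands for TGACGTCA and for AGGTCA, the half-site bound by thyroid hormone receptors. TGACGTCA was found in Dio2, starting at base −95 from the start, and is present in 1.79% of 32851 promoter windows. AGGTCA was found in 1 of the 2 Thrb promoters, starting at base −184, and is present in 16.3% of the windows. Slco1c1 and Klf9 held neither string in these windows. A match of letters is a description and not evidence of binding.

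Library totals lay between 27904126 and 37997368 counts, so that 3 counts, taken as the floor, corresponded to 0.0786 to 0.117 CPM (counts scaled by TMM to a common library size) for counting error alone. The summed level of 10 astrocyte markers was 16350 to 24210 CPM in the directly isolated groups, 919 to 1412 CPM in AdAC CellC, 7407 to 8608 CPM in neoAC CellC, 55110 to 60030 CPM in AGES and 1943 to 2471 CPM in NSC. From AdAC direct to AdAC CellC the markers did not change evenly. Of the 10, only Gfap had a higher mean in AdAC CellC (167 to 189 CPM). Among those with a lower mean, Aldh1l1 went from 273 to 180 CPM and Slc1a2 from 6102 to 49.95 CPM. The sums rest on few genes in the stem cell lines. Gfap alone had 50500 CPM on average in AGES, where Gja1 (10.3 CPM) and Slc1a3 (1265 CPM) had means below those in NSC (15.5 and 1499 CPM), and Slc1a3 was the largest term of the NSC sum. The sum of 8 oligodendrocyte markers was 22690 to 26340 CPM in AdAC direct, above that group's astrocyte sum, 2640 to 6766 CPM in AdAC CellC and at most 386 CPM in the other groups. Markers of meningeal fibroblasts (4 genes) summed to 995 to 1425 CPM in AdAC CellC and to at most 477 CPM elsewhere. The AdAC CellC sum lay mainly in the collagen genes Col1a1 (813 CPM) and Col1a2 (446.5 CPM), while Dcn had 10.5 CPM and Lum 2.45 CPM. The sum of 4 pericyte markers was 855 to 1016 CPM in AdAC CellC and at most 663 CPM elsewhere, through Acta2 (813 CPM against 69.7 CPM in AdAC direct), while Rgs5 (47.8 against 81.9 CPM), Kcnj8 (0.262 against 8.66 CPM) and Pdgfrb had lower means in AdAC CellC than in AdAC direct. In these bulk samples, fewer cells of a type and less RNA per cell cannot be told apart, and the part of cell composition in the changes given here was not tested.

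**Figure D1:**
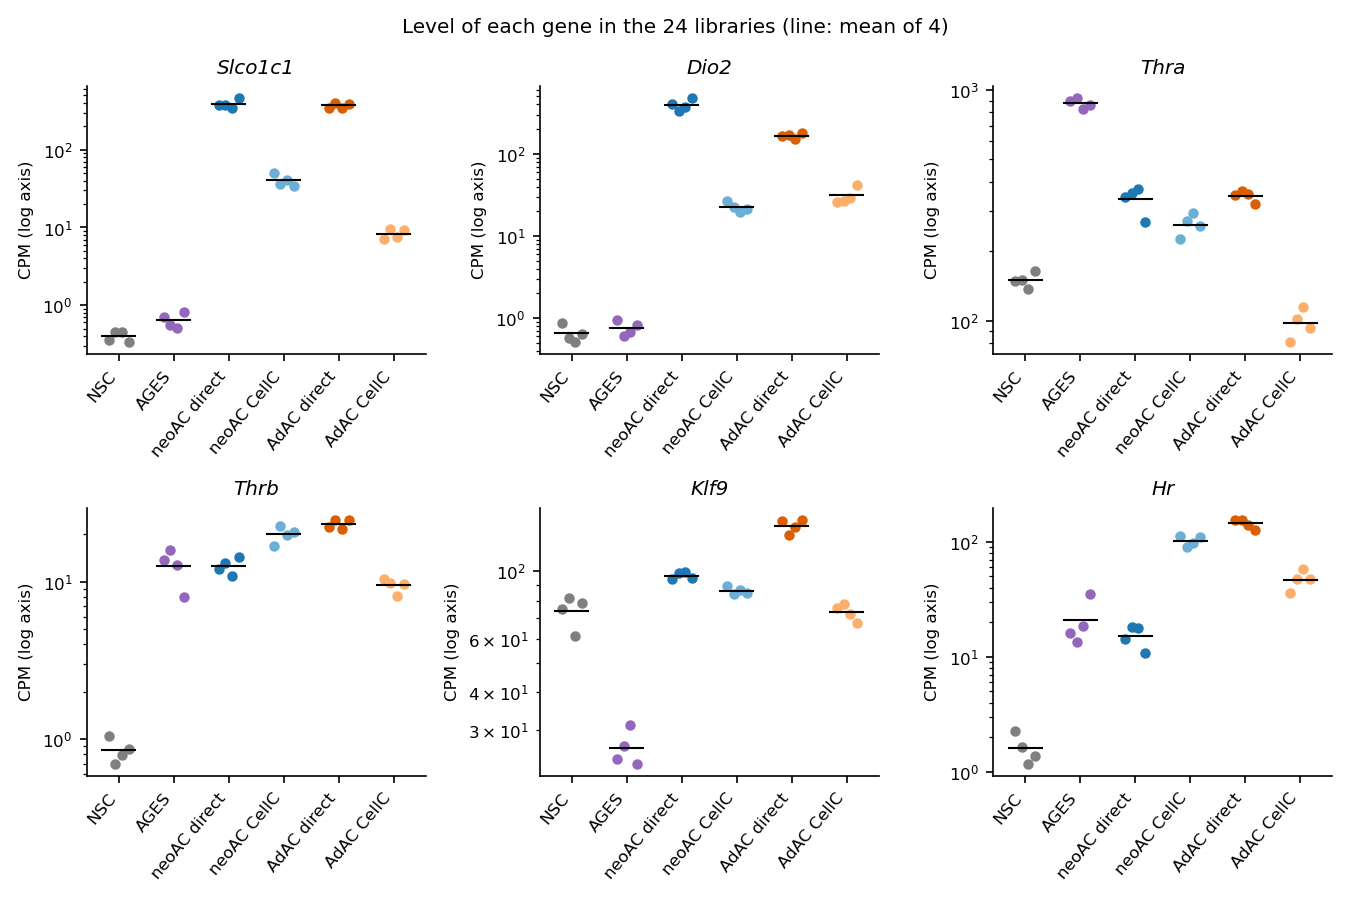
CPM of the 6 genes (log axis) in each of the 24 libraries, with points for libraries and a line for the mean of the 4 libraries of a group. Slco1c1 and Dio2 are below 1 CPM in all NSC and AGES libraries and above 140 CPM in all directly isolated libraries, while Thra is highest in AGES.

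Slco1c1, which encodes the T4 transporter OATP1C1 (chromosome 6, 141524368 to 141570177, plus strand, GRCm38), was abundant in directly isolated astrocytes and fell in culture at both ages. It had 372, 379, 345 and 460 CPM in neoAC direct and 349, 405, 341 and 391 CPM in AdAC direct. Cultured cells had 50.5, 36.3, 41.4 and 33.7 CPM (neoAC CellC) and 7.06, 9.65, 7.49 and 9.15 CPM (AdAC CellC). The cultured and direct libraries did not overlap at either age, and the directly isolated groups of the 2 ages overlapped. In the stem cell lines Slco1c1 was near the limit of detection, with 0.359, 0.455, 0.446 and 0.334 CPM in NSC (10 to 15 counts) and 0.702, 0.551, 0.513 and 0.823 CPM in AGES (16 to 25 counts). The log2 fold change in culture was −5.48 in adult cells (SE 0.14, edgeR adjusted p = 2.17e-20) and −3.27 in neonatal cells (SE 0.12, edgeR adjusted p = 4.60e-17). Slco1c1 is also known from brain endothelium. The summed level of 8 endothelial markers was 225 to 503 CPM in neoAC direct and 363 to 435 CPM in neoAC CellC, and 720 to 823 CPM in AdAC direct and 233 to 254 CPM in AdAC CellC. Within the neonatal sum, Cldn5 (43.4 to 0.0688 CPM), Pecam1 (17.2 to 0.356 CPM), Flt1 (34.9 to 1.74 CPM), Cdh5 (22.6 to 2.45 CPM) and Abcb1a fell in culture as Slco1c1 did, while Slc2a1 and Mfsd2a rose and Ly6c1 did not pass. In adult culture Cdh5 rose from 7.11 to 17.6 CPM, Pecam1 had 9.08 CPM before and 10.9 CPM after and did not pass, and the other 6 fell. The part of endothelial cells in the change at either age was not tested.

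Dio2, which encodes the enzyme that makes T3 from T4 (chromosome 12, 90724552 to 90738438, minus strand), also fell in culture at both ages. It had 399.9, 336, 367 and 477 CPM in neoAC direct and 164, 169.7, 149.9 and 177 CPM in AdAC direct. In culture it had 26.7, 22.3, 19.7 and 21.1 CPM (neoAC CellC) and 26.2, 26.9, 29.3 and 42.3 CPM (AdAC CellC). The direct groups were apart from each other and from the cultures, whereas the cultures of the 2 ages overlapped. NSC had 0.880, 0.577, 0.509 and 0.635 CPM (16 to 27 counts) and AGES 0.936, 0.609, 0.673 and 0.823 CPM (21 to 25 counts), overlapping ranges below 1 CPM. On the log2 scale, the change in culture was −4.14 in neonatal cells (SE 0.15, edgeR adjusted p = 1.59e-17) and −2.41 in adult cells (SE 0.14, edgeR adjusted p = 2.74e-14). Dio2 is also known from tanycytes. The sum of 3 tanycyte markers was at most 6.12 CPM in neonatal cells. In AdAC direct it was 11.5 to 17.4 CPM and in AdAC CellC 26.7 to 41.2 CPM. This adult rise lay mainly in Rax (1.67 to 20.8 CPM). Gpr50 had 5.35 CPM before and 6.23 CPM after adult culture, and Col25a1 8.29 and 6.93 CPM. The part of tanycytes in the changes of Dio2 was not tested. Of the exons of Dio2, 1.72% overlap Gm26512 on the opposite strand.

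Dio3, the inactivating deiodinase and the counterpart of Dio2, was detected above 2 CPM only in cultured neonatal astrocytes. It had 27.0 ± 6.73 CPM in neoAC CellC (mean ± SD, n = 4), 0.503 ± 0.140 CPM in neoAC direct, 0.590 ± 0.319 CPM in AdAC CellC and 0.270 ± 0.125 CPM in AdAC direct. In NSC and AGES each library had at most 1 count, so Dio3 in neoAC CellC was at least 274-fold higher than in AGES, against the floor of 3 counts per library. The log2 fold change of Dio3 in culture was 5.74 in neonatal cells (SE 0.30, edgeR adjusted p = 1.40e-14) and 1.11 in adult cells (SE 0.38, edgeR adjusted p = 0.0108). The adult libraries overlapped, with 0.142 to 0.395 CPM in AdAC direct (4 to 14 counts) and 0.372 to 1.06 CPM in AdAC CellC (12 to 40 counts).

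The ratio of Dio2 to Dio3 was taken within each library, per kilobase of exon, from log2 CPM with a prior count of 2. This count, added before the log, lowers the ratio where Dio3 has few counts. Dio3 had 12 to 21 counts a library in neoAC direct and 4 to 14 in AdAC direct. In neoAC direct it was 309, 246, 225 and 219, and in AdAC direct 281, 240.1, 125 and 136. In AdAC CellC it was 18.6, 16.9, 9.12 and 34.1. In neoAC CellC it was 0.522, 0.290, 0.204 and 0.249, so that Dio3 exceeded Dio2 per length in each of these 4 libraries and in no library of the other primary groups. The log2 ratio differed between culture and direct isolation by −9.71 in neonatal cells and −3.38 in adult cells, in each case with an exact two-sided permutation p = 0.0286, the smallest that 4 against 4 libraries allow, and an adjusted p = 0.0400 over 14 ratio tests. Between neoAC direct and AdAC direct the difference was 0.43 (exact permutation p = 0.257, adjusted p = 0.277). NSC and AGES are left out of this comparison because Dio3 was at the floor there.

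**Figure D2:**
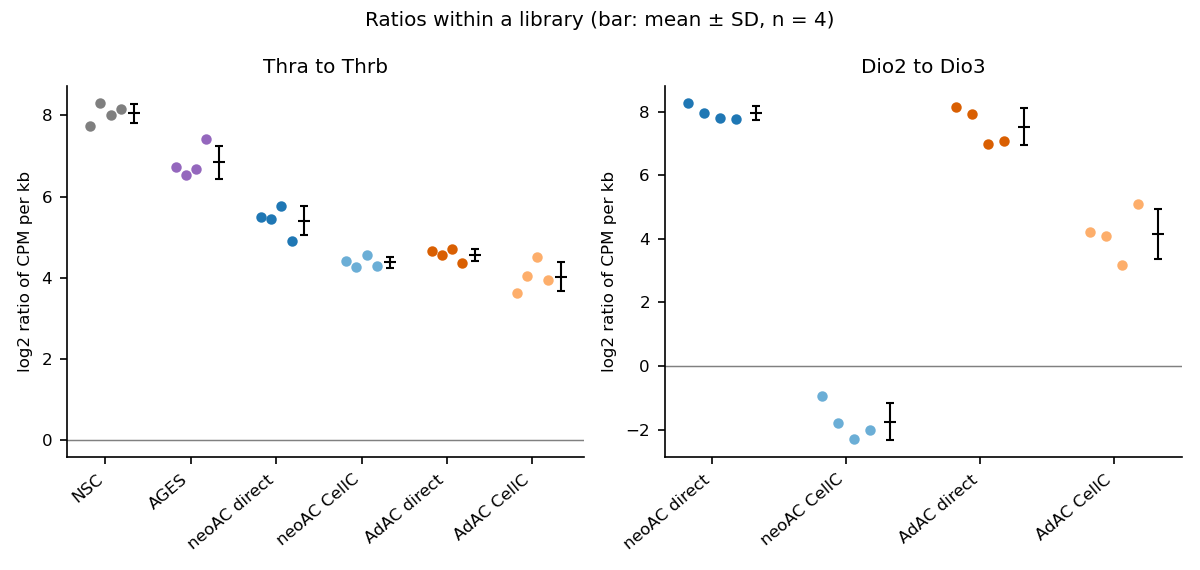
Log2 ratio of CPM per kilobase of exon within each library, with a prior count of 2, for Thra to Thrb (6 groups) and Dio2 to Dio3 (4 primary groups). Points are libraries and bars are mean ± SD (n = 4). The 4 neoAC CellC libraries lie below 0 for Dio2 to Dio3, and Thra exceeds Thrb in all 24 libraries.

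Thra, which encodes receptor alpha (chromosome 11, 98740638 to 98769006, plus strand), had the higher level per kilobase of the 2 receptor genes in all libraries. It reached 899, 922, 828 and 864 CPM in AGES, against 148, 149.8, 137 and 164 CPM in NSC. Directly isolated cells had 343, 358, 372 and 268 CPM (neoAC direct) and 351, 363, 353 and 320.2 CPM (AdAC direct). AGES lay above every other library, and the directly isolated groups overlapped. Cultured cells had 227, 270.3, 292 and 256 CPM (neoAC CellC) and 80.6, 102, 115 and 93.2 CPM (AdAC CellC), the latter below all other libraries. The log2 fold change was 2.55 from NSC to AGES (SE 0.11, edgeR adjusted p = 1.23e-16), −1.83 in adult culture (SE 0.11, edgeR adjusted p = 4.72e-14) and −0.36 in neonatal culture (SE 0.10, edgeR adjusted p = 0.00361). The neonatal groups overlapped, and their difference did not pass an exact permutation test (p = 0.0857, adjusted p = 0.0929 over 90 pairs). Thra shares 263 bases, 5.7% of its exons, with Nr1d1 on the opposite strand. Isoforms of a receptor gene, among them the alpha variant that does not bind T3, cannot be told apart in counts per gene.

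Thrb, which encodes receptor beta (chromosome 14, 17660261 to 18038090, plus strand), moved in opposite directions in the cultures of the 2 ages. It had 12.1, 13.1, 10.9 and 14.3 CPM in neoAC direct and 16.9, 22.5, 19.9 and 20.8 CPM in neoAC CellC, a rise with no overlap. It had 22.3, 24.6, 21.8 and 24.8 CPM in AdAC direct and 10.4, 9.82, 8.08 and 9.68 CPM in AdAC CellC, a fall with no overlap. In the stem cell lines it rose from 1.04, 0.698, 0.796 and 0.870 CPM in NSC to 13.7, 15.9, 12.9 and 7.998 CPM in AGES. AGES thus reached the range of primary cells for Thrb and overlapped neoAC direct. On the log2 scale, Thrb changed by 0.67 in neonatal culture (SE 0.15, edgeR adjusted p = 0.000305), −1.30 in adult culture (SE 0.15, edgeR adjusted p = 1.79e-08) and 3.89 from NSC to AGES (SE 0.19, edgeR adjusted p = 1.60e-15).

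Per kilobase of exon, Thra had 190 ± 8.90 CPM and Thrb 1.70 ± 0.449 CPM in AGES (mean ± SD, n = 4). Within libraries, the ratio of Thra to Thrb per kilobase was taken with the same prior count of 2. It was 215 to 317 in NSC, 92.7 to 172 in AGES and 30.0 to 54.6 in neoAC direct. In AdAC direct it was 20.7 to 26.0, in neoAC CellC 19.2 to 23.5 and in AdAC CellC 12.4 to 22.7. The stem cell lines therefore had a higher Thra share than all primary libraries. The log2 ratio in AGES differed by −1.21 from that in NSC, by 2.45 from that in neoAC CellC and by 2.81 from that in AdAC CellC, each with an exact permutation p = 0.0286 (adjusted p = 0.0400). It changed by −1.02 in neonatal culture (exact permutation p = 0.0286, adjusted p = 0.0400), and the difference of −0.54 in adult culture did not pass (exact permutation p = 0.0571, adjusted p = 0.0727).

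Klf9, a zinc finger transcription factor and direct T3 target that glucocorticoids also raise (chromosome 19, 23141226 to 23168134, plus strand), varied least of the 6 genes. It had 146, 131, 139.6 and 147 CPM in AdAC direct and 75.6, 77.8, 72.5 and 67.6 CPM in AdAC CellC. Neonatal cells had 94.1, 98.6, 99.4 and 94.5 CPM (neoAC direct) and 89.4, 83.8, 86.8 and 84.6 CPM (neoAC CellC). NSC had 75.0, 81.7, 61.3 and 78.6 CPM and AGES 24.1, 26.7, 31.3 and 23.3 CPM. AGES were below all other libraries and AdAC direct above them. The log2 fold change was −0.94 in adult culture (SE 0.09, edgeR adjusted p = 2.51e-10) and −1.49 from NSC to AGES (SE 0.09, edgeR adjusted p = 7.41e-14). In neonatal culture it was −0.17 and did not pass (SE 0.09, edgeR adjusted p = 0.0894), although the 8 libraries did not overlap.

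Of 7 genes known to be raised by glucocorticoids, 5 were higher, 1 was lower and 1 did not pass from NSC to AGES, where 31.7% of all genes were higher and 34.0% lower. Fkbp5, a glucocorticoid-induced chaperone, had 90.4 ± 8.92 CPM in NSC and 16.0 ± 7.65 CPM in AGES, lower as Klf9 was, while Sult1a1, a sulfotransferase, and Zbtb16, a zinc finger transcription factor, rose by 4.41 and 3.66 on the log2 scale. In adult culture 2 were higher, 3 lower and 2 did not pass (38.8% and 39.2% of all genes), and in neonatal culture 4 were higher, 1 lower and 2 did not pass (34.4% and 31.3% of all genes). Fkbp5 was higher in both cultures, with log2 fold changes of 3.40 in adult and 2.22 in neonatal cells, opposite to the fall of Klf9 in adult culture. Other genes of the list had lower means in AdAC CellC than in AdAC direct, as Klf9 did. Among them were Tsc22d3 (41.3 against 220 CPM), Sult1a1 (5.39 against 17.45 CPM) and Zbtb16 (10.5 against 24.6 CPM). The median log2 fold change of the list in adult culture was −0.51. Of the 4 nearest relatives of Klf9, 2 rose, among them Klf10 by 2.40 on the log2 scale, 1 (Klf11) fell by 0.92 and 1 did not pass in adult culture. Of these 4, 3 were lower and 1 was higher in neonatal culture, where Klf10 went from 47.3 to 22.7 CPM. The 3 relatives of Hr, the demethylase genes Kdm3a, Kdm3b and Jmjd1c, were lower in both cultures, by 0.58 to 1.09 on the log2 scale.

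Hr, which encodes the nuclear corepressor hairless (chromosome 14, 70552212 to 70573548, plus strand), reversed its direction in culture with age. It rose from 14.3, 18.2, 17.7 and 10.8 CPM in neoAC direct to 111, 89.5, 98.2 and 109.5 CPM in neoAC CellC. It fell from 153, 156, 140.3 and 128 CPM in AdAC direct to 35.8, 47.3, 57.5 and 47.2 CPM in AdAC CellC. Neither pair of groups overlapped. In the stem cell lines Hr rose from 2.28, 1.64, 1.18 and 1.37 CPM in NSC to 16.2, 13.5, 18.5 and 35.2 CPM in AGES, where replicate 4 lay above the other 3. On the log2 scale, Hr changed by 2.74 in neonatal culture (SE 0.23, edgeR adjusted p = 4.81e-10), −1.62 in adult culture (SE 0.22, edgeR adjusted p = 5.38e-07) and 3.68 from NSC to AGES (SE 0.28, edgeR adjusted p = 4.46e-11).

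The summed level of markers of choroid plexus and ependyma rose in neonatal culture and fell in adult culture, as Hr did, and was highest in neoAC CellC, where Hr was highest in AdAC direct. The sum (Folr1, Kl, Foxj1, Ccdc153 and Kcnj13) rose from 122 to 177 CPM in neoAC direct to 1273 to 1597 CPM in neoAC CellC and fell from 759 to 858 CPM in AdAC direct to 210 to 294 CPM in AdAC CellC. The adult fall lay in the genes of ciliated cells, Foxj1 (416 to 209 CPM) and Ccdc153 (359 to 10.5 CPM), while the choroid plexus genes Folr1 (23.5 to 23.7 CPM) and Kl did not pass and Kcnj13 rose from 1.22 to 3.54 CPM. In neonatal culture Kl fell and the other 4 rose. Ttr, a product of choroid plexus outside this list, rose from 132 to 284 CPM in adult culture (edgeR adjusted p = 0.0126) and had 961 and 699 CPM before and after neonatal culture, which did not pass. The marker sum was 14.6 to 23.3 CPM in NSC and 63.7 to 88.0 CPM in AGES. None of the 5 markers was at the floor in a primary group, Kl and Kcnj13 were at the floor in NSC and AGES, and Folr1 was at the floor in NSC. The part of ciliated or choroid cells in the changes of Hr was not tested.

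**Figure D3:**
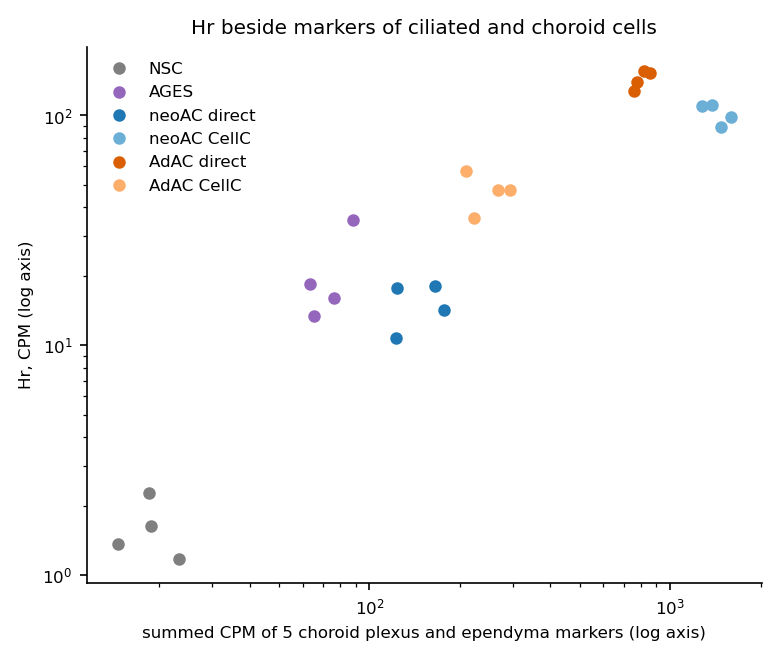
Hr (CPM, log axis) against the summed CPM of 5 choroid plexus and ependyma markers (log axis) in 24 libraries coloured by group. The neoAC CellC and AdAC direct libraries are high on both axes, and the neoAC direct and NSC libraries are low on both relative to them.

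The order of the groups was tested for each gene with exact permutation tests of 4 against 4 libraries on log2 CPM, 90 pairs in all, of which 80 had an adjusted p under 0.05. Of the 30 pairs that are neighbours in the order, 21 did. Each passing pair had an exact permutation p = 0.0286, the smallest that 4 against 4 libraries allow, so passing restates that the libraries did not overlap. The share of all genes passing this test was not determined. By edgeR, a different test, 28.5% to 38.8% of all genes were higher and 31.3% to 45.2% lower in the comparisons given below. From low to high, Slco1c1 ran NSC, AGES, AdAC CellC, neoAC CellC, AdAC direct and neoAC direct, and the last 2 did not differ beyond their spread (exact permutation p = 0.629). For Dio2 the order was NSC, AGES, neoAC CellC, AdAC CellC, AdAC direct and neoAC direct, and neither NSC and AGES (exact permutation p = 0.314) nor the cultures of the 2 ages (exact permutation p = 0.0571) were separated. For Thra, AdAC CellC was lowest, then NSC, neoAC CellC, neoAC direct, AdAC direct and AGES, without separation of neoAC direct from its neighbour on either side. For Thrb, AdAC CellC followed NSC, then came neoAC direct and AGES (exact permutation p = 0.914) and then neoAC CellC and AdAC direct (exact permutation p = 0.0857). For Klf9, AGES was lowest, AdAC CellC and NSC were not separated (exact permutation p = 0.943), and neoAC CellC, neoAC direct and AdAC direct followed. For Hr, NSC was lowest, neoAC direct and AGES were not separated (exact permutation p = 0.400), and AdAC CellC, neoAC CellC and AdAC direct followed.

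**Figure D4:**
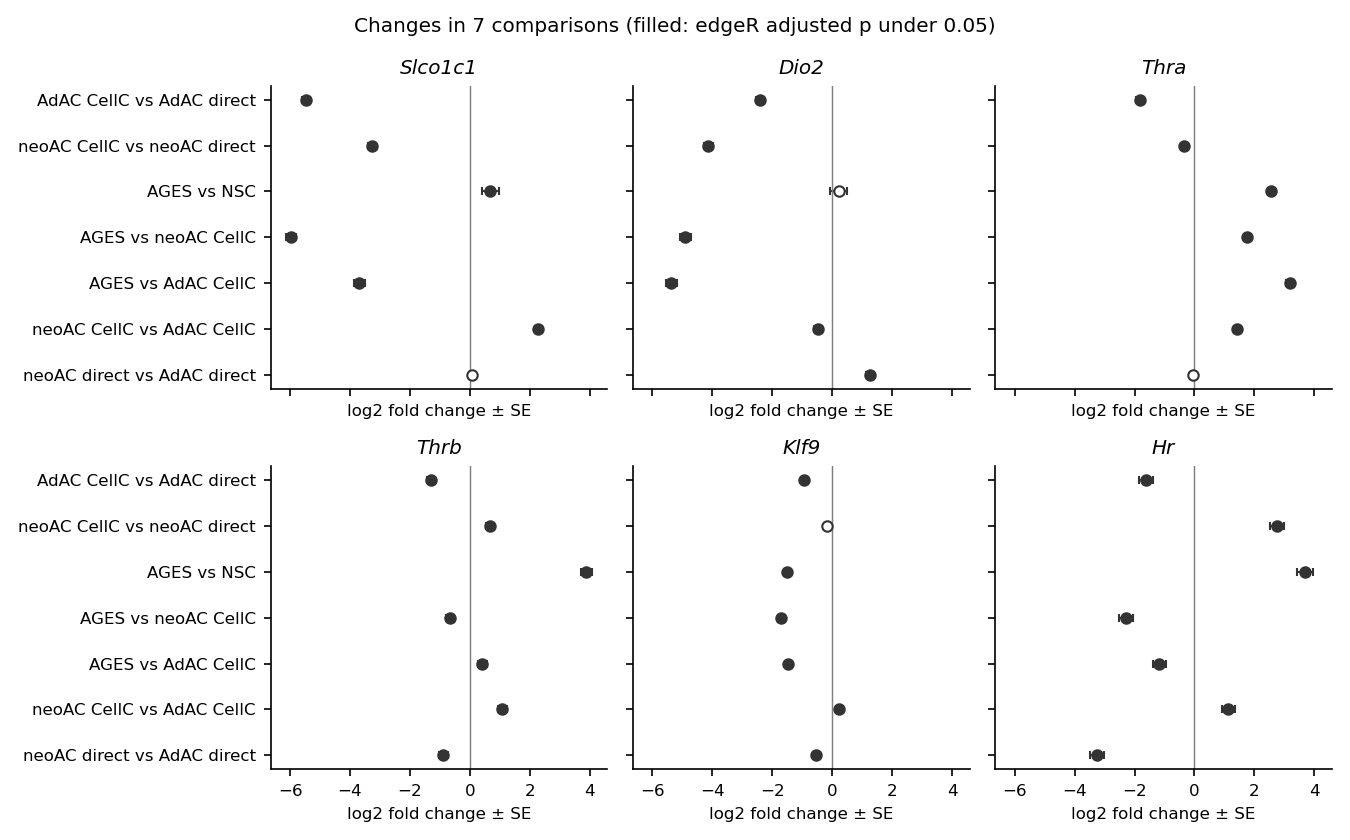
Log2 fold change ± SE (x axis, from the edgeR fit) of each gene in the 7 comparisons (y axis, first group against second), filled where the edgeR adjusted p was under 0.05. All 6 genes lie left of 0 in adult culture, and Thrb and Hr lie right of 0 in neonatal culture.

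In adult culture, genes of uptake (Slco1c1), activation (Dio2), hormone receptors (Thra, Thrb) and targets (Klf9, Hr) were all lower. All 6 passed the test, with a median log2 fold change of −1.72. Of all 19691 genes tested, 39.2% were lower and 38.8% higher by the same rule (edgeR adjusted p under 0.05), with a median of 0.00. Among 40 further genes of the pathway, of which 38 were tested (Dio1 and Pcp2 were not), 11 were higher, 16 lower and 11 did not pass, with a median of −0.11. Of the 6 other membrane transporters 5 were higher, 3 of the 4 genes of Dio2 protein turnover lower and 5 of the 6 coactivators lower. Of the 10 tested genes known to be raised by T3, 3 were higher, 3 lower and 4 did not pass, with a median of −0.03. The 4 with the largest changes were Shh, a morphogen gene (101 ± 17.7 against 0.0995 ± 0.0572 CPM), Slc7a8, an amino acid and iodothyronine transporter (70.9 ± 17.3 against 2.42 ± 0.593 CPM), Dbp, a clock transcription factor (32.1 ± 2.43 against 228 ± 32.4 CPM), and Cbr2, a carbonyl reductase (2.49 ± 0.730 against 0.438 ± 0.142 CPM). Oligodendrocyte markers fell in the same comparison, from 22690 to 26340 CPM to 2640 to 6766 CPM, and their part was not tested.

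In neonatal culture the supply genes Slco1c1 and Dio2 fell while the receptor gene Thrb and the target Hr rose. In all, 2 of the 6 genes were higher and 3 lower in neoAC CellC than in neoAC direct, where 34.4% of all genes were higher and 31.3% lower, and Klf9 did not pass. Of all called genes 52.3% were higher, or 65.9% with scaling by library totals only, which gave Klf9 a log2 fold change of 0.06 and Thra one of −0.13, neither past the threshold. The median of the 6 was −0.26, against 0.04 over all genes tested. Of the pathway list 10 were higher, 18 lower and 10 did not pass (median −0.26). The 4 with the largest changes rose. Shh had 5.96 ± 3.07 CPM in culture and 0.0876 ± 0.0421 CPM in direct cells, Dio3 is given above, Aldh1a1, a retinaldehyde dehydrogenase, went from 17.3 ± 4.09 to 312 ± 56.0 CPM, and Rcan2, a calcineurin regulator, went from 9.60 ± 3.30 to 94.4 ± 14.5 CPM. Of the 10 tested genes known to be raised by T3, 5 were higher, 3 lower and 2 did not pass.

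The change in culture differed between the ages for all 6 genes, by the test of the difference itself (adult change minus neonatal change on the log2 scale). Hr differed by −4.36 (SE 0.32, edgeR adjusted p = 3.59e-11), Slco1c1 by −2.21 (SE 0.17, edgeR adjusted p = 1.55e-11) and Thrb by −1.97 (SE 0.21, edgeR adjusted p = 8.15e-09). Thra differed by −1.47 (SE 0.15, edgeR adjusted p = 2.74e-09), Klf9 by −0.78 (SE 0.12, edgeR adjusted p = 3.46e-06) and Dio2 by 1.73 (SE 0.19, edgeR adjusted p = 9.54e-09). Dio2 thus fell less in adult than in neonatal culture, and Slco1c1, Thra and Klf9 had the more negative change in adult cells. Among the 6 genes 5 differences were below 0 and 1 above, where 33.2% of all genes were below and 35.4% above. Of the pathway list 17 were above 0, 12 below and 9 did not pass. The 4 largest were Rcan2 (−4.87), Dio3 (−4.63), Slco1a4, a transporter of the same family as Slco1c1 (−4.22), and Aldh1a1 (−4.15), on the log2 scale.

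**Figure D5:**
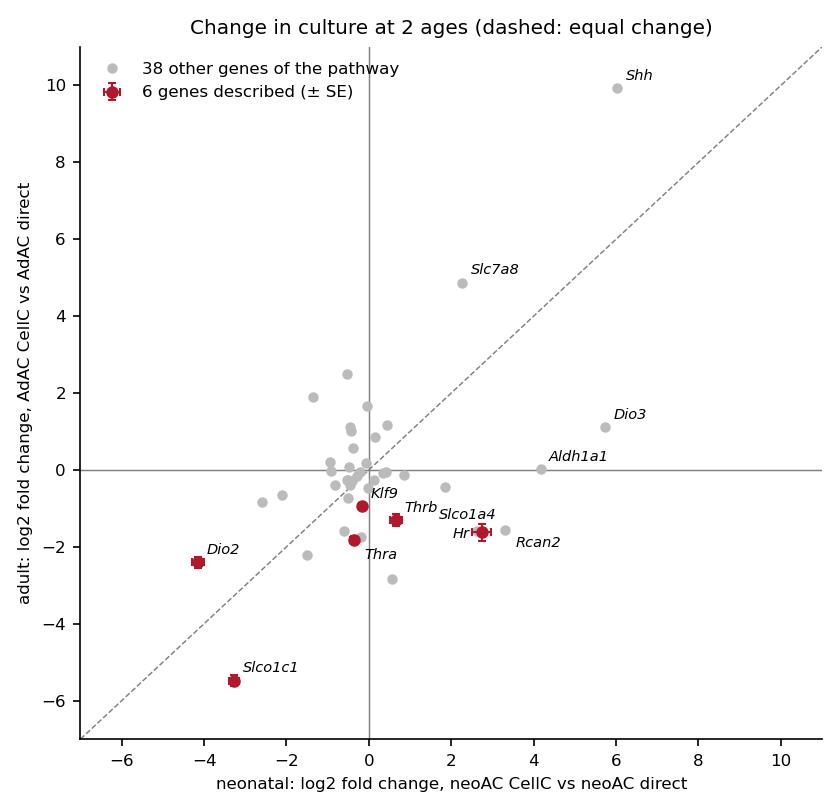
Log2 fold change in culture in adult cells (y axis) against neonatal cells (x axis) for the 6 genes (red, ± SE) and the 38 tested genes of the pathway list (grey), with a dashed line of equal change. Slco1c1 and Dio2 lie in the lower left on opposite sides of the line, and Thrb and Hr lie in the lower right.

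From NSC to AGES both receptor genes and Hr were higher and Klf9 was lower, and Dio2 and Slco1c1 stayed below 1 CPM. BMP4, the FGF and EGF of the NSC medium and the plate coating differed together between these groups and cannot be told apart. Of the 6 genes 4 were higher and 1 lower, where 31.7% of all genes were higher and 34.0% lower. Slco1c1 was among the 4, with a log2 fold change of 0.68 (SE 0.28, edgeR adjusted p = 0.0340), a call that was lost without NSC replicate 1 or 4 or AGES replicate 1 or 4 (edgeR adjusted p from 0.0663 to 0.129 without each). Dio2 did not pass (0.21, SE 0.28, edgeR adjusted p = 0.530). The median of the 6 was 1.62 and that of all genes 0.00. Of the pathway list 15 were higher, 8 lower and 15 did not pass (median 0.14). Nrgn, which encodes a calmodulin-binding protein, went from 7.23 ± 1.20 to 0.0499 ± 0.0570 CPM, Aldh1a1 from 20.3 ± 7.45 to 461 ± 28.7 CPM, Rcan2 from 1.03 ± 0.673 to 12.1 ± 4.61 CPM and Thrsp, a lipogenic gene, from 6.77 ± 3.23 to 65.1 ± 26.3 CPM.

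Against cultured primary astrocytes, AGES had more Thra and less Dio2, Slco1c1, Klf9 and Hr. Against neoAC CellC, 1 of the 6 was higher and 5 were lower, where 34.1% of all genes were higher and 40.5% lower. The share of called genes that were higher was 45.7%, or 31.4% with scaling by library totals only. Thra differed by 1.75 (SE 0.11, edgeR adjusted p = 8.65e-14), Slco1c1 by −5.97 (SE 0.17, edgeR adjusted p = 1.58e-20) and Hr by −2.29 (SE 0.23, edgeR adjusted p = 3.91e-09) on the log2 scale. Dio2 differed by −4.90, Klf9 by −1.71 and Thrb by −0.67, all past the edgeR threshold. Against AdAC CellC, 2 were higher and 4 lower, where 31.0% of all genes were higher and 45.2% lower and the median of all genes was −0.23. Thra differed by 3.17 (SE 0.11, edgeR adjusted p = 1.36e-18), Slco1c1 by −3.69, Dio2 by −5.37, Klf9 by −1.48 and Hr by −1.17. Thrb was higher by 0.41 (SE 0.15, edgeR adjusted p = 0.0160) with overlapping libraries, and this call was lost without AGES replicate 2 (0.27, edgeR adjusted p = 0.107) or AdAC CellC replicate 3 (0.35, edgeR adjusted p = 0.0568). With scaling by library totals only it was 0.19 (edgeR adjusted p = 0.265). These comparisons share the AGES libraries.

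Of the pathway list, 19 were higher and 14 lower in AGES than in neoAC CellC, and 17 higher and 15 lower than in AdAC CellC, with medians of 0.27 and −0.02. Genes nearly absent from AGES led the list. Beside Dio3, Ttr, which encodes the T4 carrier transthyretin and is a product of choroid plexus, had 699 ± 389 CPM in neoAC CellC but 0.960 ± 0.136 CPM in AGES. The transporter gene Slco1a4 had 49.3 ± 8.51 CPM in neoAC CellC but 0.106 ± 0.0339 CPM in AGES. Slc7a8 had 0.0774 ± 0.0545 CPM in AGES, while its level was 39.8 ± 4.62 CPM in cultured neonatal and 70.9 ± 17.3 CPM in cultured adult cells. Against AdAC CellC the largest differences were in Shh, Slc7a8, Mbp, a myelin gene (4.75 ± 1.36 against 3355 ± 1144 CPM), and Crym, a cytosolic T3-binding protein (0.115 ± 0.0860 against 62.6 ± 12.1 CPM).

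Between the ages, directly isolated cells differed in Dio2, Thrb, Klf9 and Hr and not detectably in Slco1c1 and Thra. Neonatal cells had more Dio2 (log2 fold change 1.26, SE 0.13, edgeR adjusted p = 3.98e-09) and less Hr (−3.24, SE 0.24, edgeR adjusted p = 2.48e-11), Thrb (−0.89, SE 0.15, edgeR adjusted p = 7.39e-06) and Klf9 (−0.55, SE 0.09, edgeR adjusted p = 3.28e-06). Slco1c1 (0.07, SE 0.11) and Thra (−0.05, SE 0.10) did not pass. Thus 1 of the 6 was higher and 3 lower, where 35.0% of all genes were higher and 36.4% lower. Of the pathway list 13 were higher and 14 lower, among them Rxrg, a partner of thyroid hormone receptors, with 22.7 ± 3.36 CPM in neonatal and 1.71 ± 0.641 CPM in adult cells, Rcan2, with 9.60 ± 3.30 and 255 ± 41.8 CPM, Mbp, with 10.5 ± 1.88 and 4554 ± 302 CPM, and Ttr, with 961 ± 293 and 132 ± 85.7 CPM. Myelin genes mark oligodendrocytes, whose marker sum was 316 to 386 CPM in neoAC direct and 22690 to 26340 CPM in AdAC direct.

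After culture the age difference had another form. Neonatal cultures had more Slco1c1 (log2 fold change 2.28, SE 0.13, edgeR adjusted p = 6.85e-14), Thra (1.42, SE 0.11, edgeR adjusted p = 1.78e-11), Hr (1.12, SE 0.22, edgeR adjusted p = 9.74e-05), Thrb (1.08, SE 0.15, edgeR adjusted p = 7.33e-07) and Klf9 (0.23, SE 0.09, edgeR adjusted p = 0.0202) than adult cultures. The Klf9 call was lost without AdAC CellC replicate 4 (0.20, edgeR adjusted p = 0.0615). Dio2 was lower (−0.47, SE 0.13, edgeR adjusted p = 0.00323), with overlapping libraries. Of the 6, 5 were higher and 1 lower, where 28.5% of all genes were higher and 35.2% lower. Of the pathway list 12 were higher and 18 lower, and the largest differences were in Mbp (38.1 ± 19.7 against 3355 ± 1144 CPM), Dio3, Shh (5.96 ± 3.07 against 101 ± 17.7 CPM) and Cbr2 (0.174 ± 0.111 against 2.49 ± 0.730 CPM).

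The genes whose levels over the 24 libraries were most like those of each of the 6 were found among 12118 protein-coding genes, by the root mean square difference of log2 CPM after centring each gene on its mean. For Dio2 they were Gucy1a1 (0.475) and Gucy1b1 (0.502), which encode the subunits of soluble guanylate cyclase, and Pcdh20 (0.533). For Slco1c1, Luzp2 (0.648) and Abhd3 (0.661) were among them. For Thra they were Hacd2 (0.224), Fam189a2 (0.385) and the nuclear receptor gene Rora (0.391), and for Thrb they were Lix1 (0.444), Adgra1 (0.503) and the integrin gene Itgb8 (0.512). For Klf9 they were Gnptab (0.266), Arhgap33 (0.278) and Sclt1 (0.281). For Hr they were Smim1 (0.518), 1700007K13Rik (0.667) and Ccdc65 (0.684), the last of which encodes a component of motile cilia. The median over all candidates was 3.57 for Dio2, 3.98 for Slco1c1, 1.26 for Thra, 1.81 for Thrb, 1.05 for Klf9 and 2.32 for Hr.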

How the data were processed

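RNA was measured in 24 libraries, grouped by their titles, 4 in each of 6 groups. Stranded libraries from polyadenylated RNA were aligned by the authors to GRCm38 with STAR 2.7.3a, after bcl2fastq 2.20, and counted per gene with featureCounts. The deposited values are these raw counts, without normalization or filtering. The counting options listed in the paper include no strand setting, so reads from the opposite strand may be included. Gene symbols, positions and exon lengths came from Gencode vM21, which held 49326 of the 49671 identifiers, and promoter sequences from RefSeq.

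Analysis was done in R (4.3.3) with the packages DESeq2 (1.42.0), limma (3.58.1) and edgeR (4.0.16). Genes kept by filterByExpr (19691) were scaled by TMM and fitted in 1 robust quasi-likelihood model of the 6 groups. Two-sided contrasts gave the 7 comparisons and the difference in culture effect between ages, adjusted by Benjamini-Hochberg over all genes tested, with a threshold of 0.05. SE was obtained as the absolute log2 fold change over the root of the F statistic. Log2 CPM used a prior count of 2. Permutation tests were exact, and two-sided. Floors cover counting error only, whereas SE and SD also hold the spread between libraries.

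The genes named are the 6 members, at most 4 genes of the pathway list in each comparison by the size of the change among called genes that reach 1 CPM in the group where they are higher, likewise the relatives and the glucocorticoid list, and for each member the 3 genes most like it. The members and lists were chosen with earlier results of these data known. Replicates were separate isolations or cultures. Alternatives were DESeq2 size factors, library totals, no filter, the DESeq2 Wald test, a minimum of 10 counts in every library, fits of the compared groups with and without a replicate block, a prior count of 0.5, and leaving out each library. The fits were tested on simulated data. Some genes that the naming rule covers are not reported here.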

Additional observations from a re-analysis of the deposited data

Results flagged for a closer look

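For all 6 genes the change in culture differed between adult and neonatal astrocytes by a test of the difference itself in edgeR (adult minus neonatal, log2 scale). The differences were 1.73 for Dio2, −2.21 for Slco1c1, −1.47 for Thra, −1.97 for Thrb, −0.78 for Klf9 and −4.36 for Hr. For Thrb and Hr the changes at the 2 ages had opposite signs. Differences of this kind passed for 33.2% of all genes below 0 and 35.4% above 0. Among the 36 groups of 4 libraries, 0 held a library set apart from the others by Dixon's criterion, which chance would meet in about 1 of 20 groups.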

How the results depend on the processing

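Of 768 values of the 48 changes of the 6 genes under alternative settings, 749 kept their direction and their side of the threshold. With library totals only, 3 calls were lost, Thra in neonatal culture (−0.13), Slco1c1 from NSC to AGES (0.60) and Thrb in AGES against AdAC CellC (0.19), and the uncalled Klf9 in neonatal culture became 0.064. That scaling moved the median of all genes from 0.04 to 0.27 in neonatal culture, from −0.07 to −0.37 in AGES against neoAC CellC and from −0.23 to −0.45 in AGES against AdAC CellC. Klf9 in neonatal culture passed with no filter (−0.23) and in the fit of the compared groups only (−0.20). With at least 10 counts in every library, Thrb in AGES against AdAC CellC was 0.31 and did not pass, and the pathway genes called fell to 20 (AGES against neoAC CellC), 21 (AGES against AdAC CellC) and 18 (neoAC CellC against AdAC CellC), as this filter leaves fewer genes to test. A prior count of 0.5 turned the Dio2 to Dio3 log2 ratio of AGES against NSC to −0.17 and that of AGES against AdAC CellC to −0.93, which no longer passed, where Dio3 is at the floor. The cause of the other changes was not tested.

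Samples with the same replicate number did not deviate together (correlations from −0.10 to 0.11). With the replicate block, Slco1c1 from NSC to AGES (0.77, edgeR adjusted p = 0.0685) and Dio2 in neoAC CellC against AdAC CellC (−0.36, edgeR adjusted p = 0.0852) did not pass, and Klf9 in neonatal culture did (−0.20, edgeR adjusted p = 0.0410). The block changed no other call of the 6 genes. Leaving out each library in turn gave 0.54 to 0.78 for Slco1c1 from NSC to AGES, 0.27 to 0.58 for Thrb in AGES against AdAC CellC and 0.20 to 0.27 for Klf9 in neoAC CellC against AdAC CellC. Between neoAC direct and AdAC direct it gave −0.023 to 0.12 for Slco1c1 and −0.10 to 0.045 for Thra, both of which changed sign without neoAC direct replicate 4. Depth limits Dio2 and Slco1c1 in NSC and AGES, with 10 to 27 counts a library.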
